A study of Mus musculus with 9 samples.

Results

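The phospholipases A2, the lipoxygenases and the genes that make, inactivate and sense prostaglandins and leukotrienes were followed in adipose stromal cells (ASCs) of the mouse mammary gland. They were taken by gene symbol, from probe sets annotated with a single symbol, and the name patterns matched 49 of the 19930 genes measured. The study used female Balb/c mice and asked how ASCs differ between stages of the mammary gland, and it named phospholipase A2 activity among the gene sets of lactation. Its arrays hold ASCs of nulliparous mice at 8 weeks of age (ASC-N), of mice at day 5 of lactation (ASC-L) and of mice at day 3 of involution (ASC-I), with 3 arrays per stage that the labels call biological replicates. Involution was started by removing the pups, and no other treatment is named. The nulliparous animals had not been housed with males. The paper mated the other mice at 8 weeks of age, so these were older, and age cannot be told apart from stage. The paper describes the RNA as coming from low passage cultures, whereas the labels describe stroma separated from the gland by digestion and centrifugation, and the number of mice behind an array is not stated. All p-values below therefore measure the spread between preparations.

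Phospholipases A2 release arachidonic acid from membrane phospholipids, and cyclooxygenases turn it into prostaglandin H2, from which separate synthases make prostaglandins, prostacyclin and thromboxane. Arachidonate 5-lipoxygenase and its activating protein FLAP open the other branch, which leads to the leukotrienes. Stromal fibroblasts are known for the prostaglandin E2 branch, while the enzymes of the leukotriene branch are best known from macrophages, neutrophils, mast cells and eosinophils. Each mediator acts on its own G protein-coupled receptors.

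The values are log2 signals of Affymetrix Mouse Gene 1.0 ST arrays, and the array medians over all probe sets lay between 5.93 and 6.0. The 13 stromal fibroblast markers had a list mean between 10.89 and 11.53, although Lum, between 4.62 and 9.06, and Cd34, between 4.94 and 7.76, lay below the array medians on some arrays. By the limits given below, Pdgfra alone of the 13 was called in ASC-Ls against ASC-Ns, as lower, beside 0.457% of all genes called lower. Pdgfra was lowest on ASC-L array 2, at 8.86, and next lowest on ASC-I array 2, at 9.86. The 9 mature adipocyte markers had a list mean between 5.95 and 6.38, and ran from Adipoq and Lep, between 3.82 and 4.41, to Lpl, between 8.97 and 11.38. Luminal epithelial markers were highest on ASC-L array 2, with a list mean of 8.47, and on ASC-I array 2, with 7.23, and lay between 5.57 and 6.59 on the other arrays. Endothelial markers were highest on ASC-L array 2 (7.31), ASC-N array 1 (6.94) and ASC-I array 2 (6.80), and lay between 5.62 and 5.95 elsewhere. Macrophage markers were low on all 3 ASC-L arrays, with a list mean between 6.27 and 6.53, and on ASC-N array 3, with 5.93. They lay between 7.09 and 8.27 on the other arrays. In material of mixed cells, fewer cells of a type and less RNA per cell cannot be told apart.

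Few of the 49 genes differed between the stages. A gene was called changed at an unadjusted p under 0.05 in limma and a difference of at least 1.5-fold. The gene tables of the study meet these limits, while its methods state no such cutoff for single genes. Between ASC-Ls and ASC-Ns 2 of the 49 were called, both lower in ASC-Ls, where 0.627% of all genes were called in either direction and 0.457% as lower. These were Cysltr1, a receptor for cysteinyl leukotrienes, and Hpgd, the enzyme that inactivates prostaglandins. Between ASC-Ls and ASC-Is 1 was called, Alox5, the 5-lipoxygenase, lower in ASC-Ls, against a background of 0.482% of all genes and of 0.406% called lower. Between ASC-Is and ASC-Ns 0 were called, against 0.251% of all genes. All 3 genes are also in the gene tables that the study made from these arrays, so that they are not independent evidence. After Benjamini-Hochberg adjustment over all genes 0 genes (0.00%) passed 0.05 in any of the 3 comparisons. An unadjusted p under 0.05 was found for 726, 359 and 311 genes, or 3.64, 1.80 and 1.56% of all, and for 3, 1 and 1 of the 49. The 3 comparisons share arrays, so their values stand side by side and are not separate evidence.

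**Figure D1:**
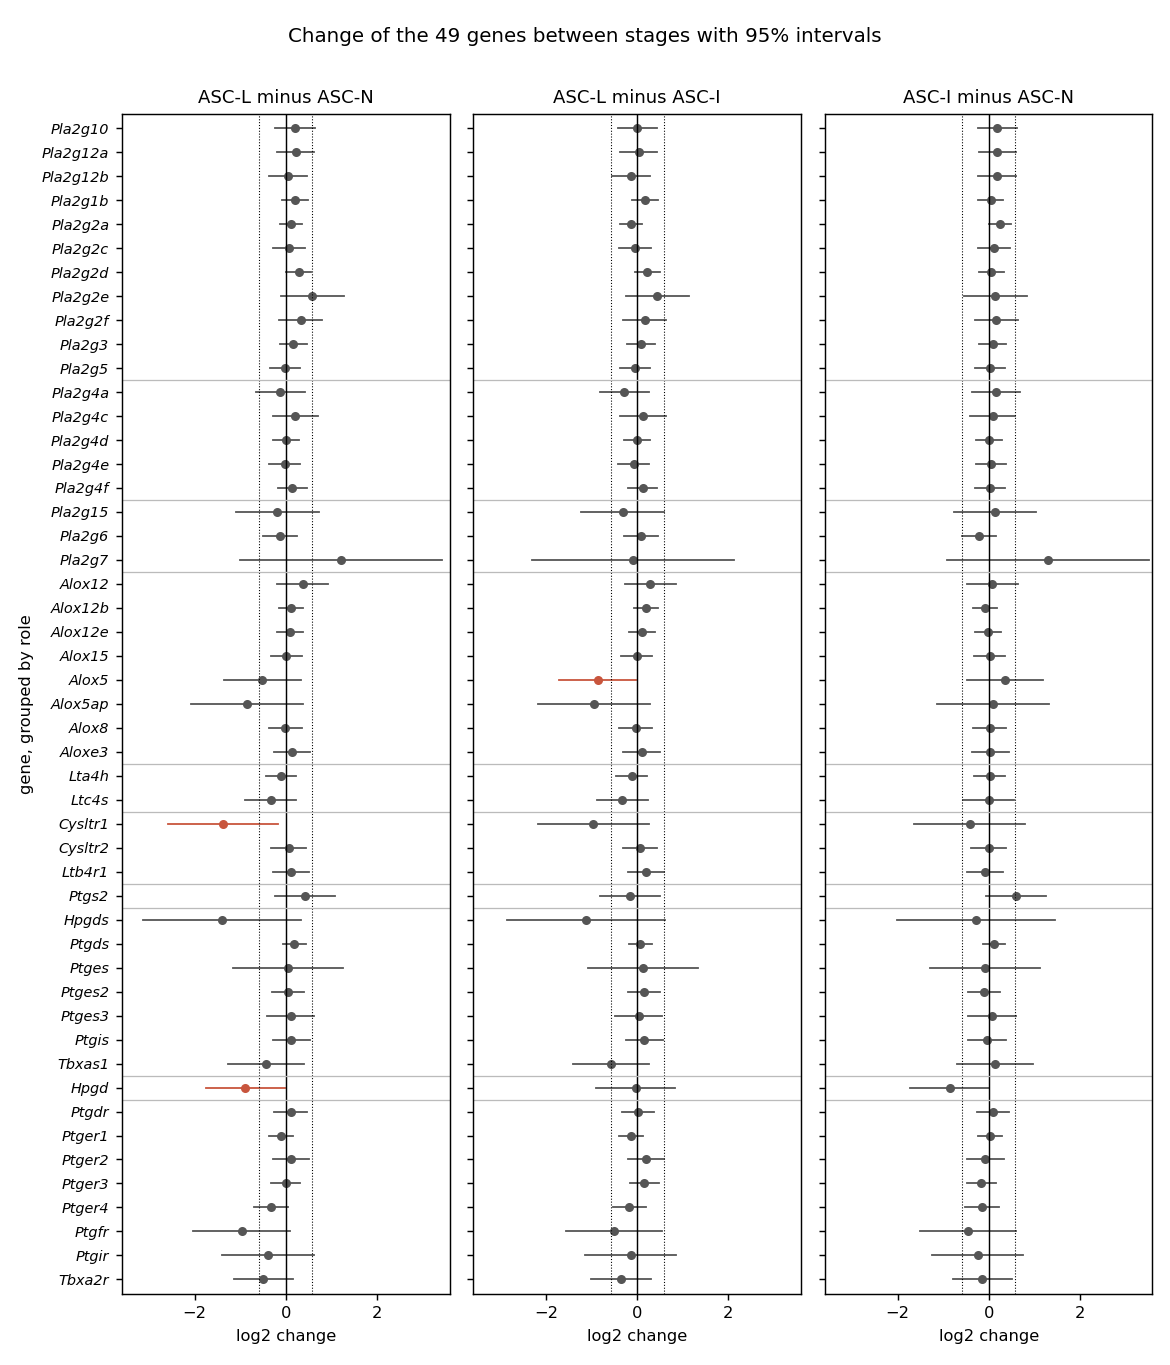
Difference in log2 signal between stages (dots) with 95% intervals from limma (lines) for the 49 genes, grouped by role with grey lines between the roles. Red marks the genes called, Cysltr1 and Hpgd in ASC-L minus ASC-N and Alox5 in ASC-L minus ASC-I, and dotted lines mark 1.5-fold.

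The typical gene of the 49 moved little, but many of them had low signals, which normalization can compress. A mean log2 signal under 6 was found for 30 of the 49, and 11 were in the lowest 25% of mean signal. The median difference of the 49 genes was 0.06 on the log2 scale in ASC-Ls against ASC-Ns, 0.00 against ASC-Is and 0.04 in ASC-Is against ASC-Ns, beside medians of 0.01, 0.01 and 0.00 over all genes. The mean was higher in ASC-L than in ASC-N for 29 of the 49, beside 51.7% of all genes, and higher than in ASC-Is for 24, beside 52.0%. It was higher in ASC-I than in ASC-N for 31, beside 50.9%. In these comparisons the difference was under 1.5-fold for 42, 45 and 46 of the 49 genes. The 95% interval lay wholly within a 2-fold change in either direction for 35, 37 and 38 of the 49 genes, or 71.4, 75.5 and 77.6%, beside 89.6, 90.3 and 91.1% of all genes. For the remaining genes a 2-fold difference was therefore within the error of 3 arrays per stage.

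Several of the genes varied widely between single arrays. The median range over the 9 arrays was 0.72 for the 49 genes and 0.58 for all genes, and 11 of the 49 had a range above 1.5, beside 7.83% of all genes. These 11 were Alox5, Alox5ap, Cysltr1, Hpgd, Hpgds, Pla2g2e, Pla2g7, Ptges, Ptgfr, Ptgir and Tbxas1. Of the 49, 15 were lowest on ASC-N array 2 and 12 on ASC-L array 2, where 13.2 and 19.8% of all genes were lowest. ASC-N array 3 held the highest value of 10 of the 49 and ASC-L array 3 that of 9, where 14 and 13.1% of all genes were highest. The arrays of ASC-Ls and ASC-Ns did not overlap for 4 of the 49 genes, beside 8.59% of all genes. Pla2g2a, Pla2g2d and Ptgds were higher and Ptgfr lower in ASC-Ls, beside 4.89% of all genes higher and 3.70% lower without overlap. Those of ASC-Ls and ASC-Is did not overlap for 3, beside 5.56%, with Pla2g2d higher (2.96% of all genes) and Alox5 and Cysltr1 lower in ASC-Ls (2.60% of all genes). Those of ASC-Is and ASC-Ns did not overlap for Pla2g2a alone, higher in ASC-Is, beside 6.54% of all genes and 3.89% higher.

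**Figure D2:**
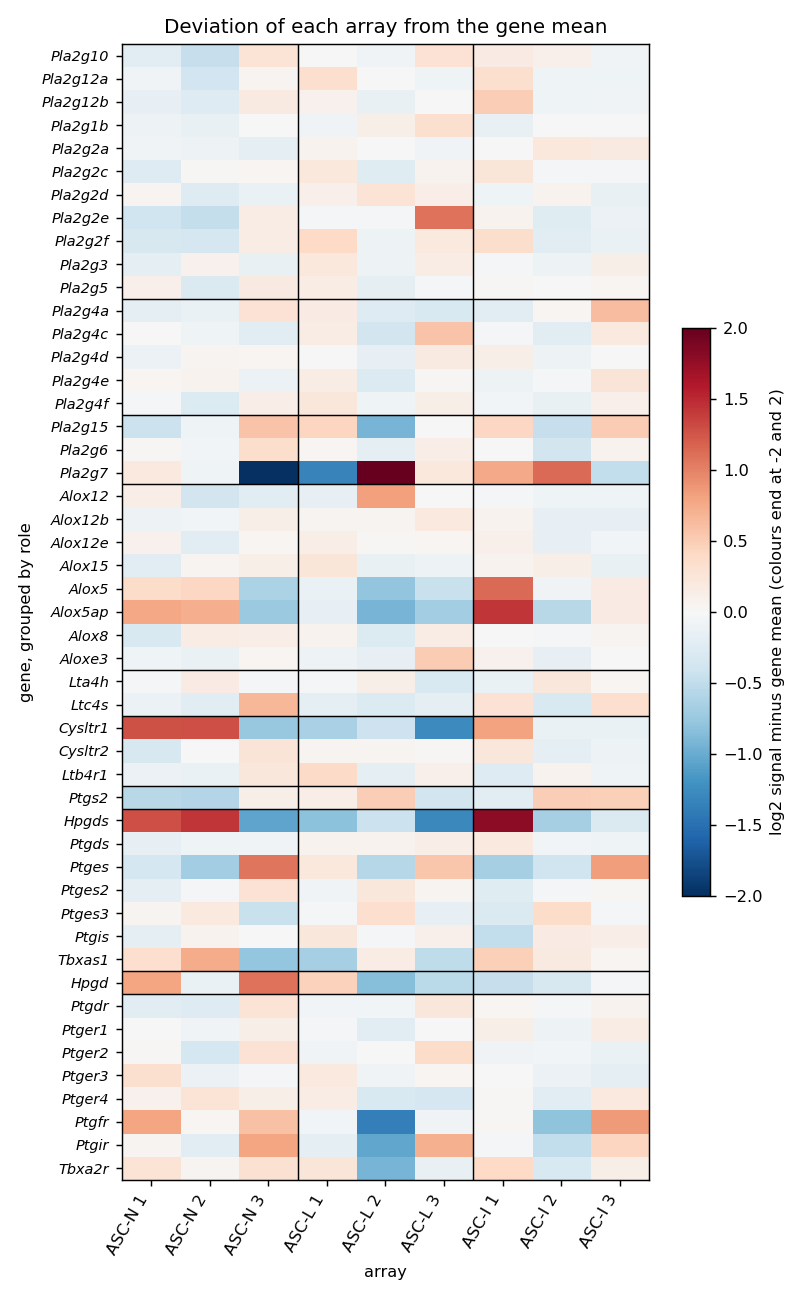
Log2 signal of each array minus the gene's mean over the 9 arrays (colour, ending at -2 and 2) for the 49 genes in rows, grouped by role, and the arrays in columns, with black lines between stages. Alox5, Alox5ap, Cysltr1 and Hpgds are red on ASC-N arrays 1 and 2 and on ASC-I array 1, and Pla2g7 is dark red on ASC-L array 2.

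The secreted phospholipases A2 were on average slightly higher in ASC-L than in ASC-N, but none was called. The mean was higher in ASC-Ls for 10 of 11 genes, beside 51.7% of all genes, with differences from -0.01 to 0.59 and a median of 0.20 on the log2 scale. Against ASC-Is the mean in ASC-Ls was higher for 7 of 11, beside 52.0%, with a median of 0.04. In ASC-Is it was higher than in ASC-Ns for all 11, beside 50.9%, with a median of 0.15. The list mean of the 11 lay between 5.17 and 5.59, below the array medians, where normalization can compress signals. Of the 11, 6 lie in a run on chromosome 4, namely Pla2g2c, Pla2g2f, Pla2g2d, Pla2g5, Pla2g2a and Pla2g2e, with a single other protein-coding gene among them in RefSeq. Pla2g2a lies within the span of Pla2g5.

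Pla2g2e, which is known in mice from the adipose tissue of obese animals, differed most within the group. Its log2 signal was 5.55, 5.46 and 6.09 on ASC-N arrays 1, 2 and 3, 5.92, 5.90 and 7.04 on the ASC-L arrays, and 6.01, 5.71 and 5.82 on the ASC-I arrays. ASC-L array 3 stood above all others, and ASC-N array 3 lay above the other ASC-L arrays. The mean was 1.5-fold higher in ASC-L than in ASC-N (difference 0.59, SE 0.30, unadjusted p = 0.0852, adjusted p = 0.998), which did not pass the threshold. It passed in limma without ASC-N array 3 (difference 0.78, unadjusted p = 0.0426), ASC-L array 1 (unadjusted p = 0.0477) or ASC-L array 2 (unadjusted p = 0.0407). Of all genes 1.77, 2.03 and 0.617% were called in these fits, beside 0.627% with all arrays. Without ASC-L array 3 the difference of Pla2g2e fell to 0.21 (unadjusted p = 0.323).

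Pla2g2d, an enzyme of lymphoid tissue and dendritic cells, had log2 signals of 5.41, 5.09 and 5.22 in ASC-Ns, 5.46, 5.64 and 5.48 in ASC-Ls and 5.27, 5.43 and 5.20 in ASC-Is. The ASC-L arrays lay above all other arrays, by a small margin. The difference from ASC-Ns was 0.28 (SE 0.12, unadjusted p = 0.0467, adjusted p = 0.998), or 1.22-fold, which is under the 1.5-fold threshold. Pla2g2a, the group IIA enzyme, which is intact in Balb/c mice and interrupted in C57BL/6 mice, was at 4.75, 4.73 and 4.65 in ASC-Ns, 4.90, 4.82 and 4.77 in ASC-Ls and 4.82, 5.04 and 5.01 in ASC-Is. All ASC-N arrays were below all others, within a narrow range at low signal. Both genes lay below the array medians on every array. The Pla2g2a means of 4.71, 4.83 and 4.96 in ASC-Ns, ASC-Ls and ASC-Is lay near 4.85, the limit of the lowest 25% of genes by mean signal. For Pla2g2a the difference of ASC-Ls from ASC-Ns was 0.12, and 0.06 after quantile or cyclic loess normalization. ASC-Is lay 0.25 above ASC-Ns (SE 0.11, unadjusted p = 0.0449, adjusted p = 1), or 1.19-fold, also under the threshold. For the other 8 secreted enzymes the difference between any pair of stages was at most 0.33 on the log2 scale. Their range over the arrays was between 0.41 and 0.75.

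The phospholipases A2 that act inside the cell did not pass the threshold. Pla2g4a, the cytosolic enzyme that prefers arachidonic acid, had a mean log2 signal of 10.92 ± 0.26 (SD, n = 3) in ASC-Ns, 10.80 ± 0.26 in ASC-Ls and 11.09 ± 0.43 in ASC-Is, and the ASC-L mean was 0.12 below ASC-Ns with a 95% interval from -0.66 to 0.42. The other 4 cytosolic enzymes, Pla2g4c, Pla2g4d, Pla2g4e and Pla2g4f, differed between stages by at most 0.21. The genes Pla2g4d, Pla2g4e and Pla2g4f are neighbors on chromosome 2. Pla2g6, the calcium-independent enzyme, differed by at most 0.21 between stages. Pla2g15, the lysosomal enzyme, was lowest on ASC-L array 2 at 7.94 and highest on ASC-N array 3 at 9.43.

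Pla2g7, the secreted hydrolase of platelet-activating factor that macrophages are known to make, varied most of all 49 genes over the arrays. Its log2 signal was 8.22, 7.93 and 5.40 in ASC-Ns, 6.69, 10.27 and 8.22 in ASC-Ls and 8.77, 9.16 and 7.52 in ASC-Is. The 3 stages overlapped, and replicates of a single stage differed by more than 2 on the log2 scale in ASC-Ns and ASC-Ls. ASC-Ls were 1.21 above ASC-Ns with an SE of 0.98 (unadjusted p = 0.248, adjusted p = 0.998), and ASC-Is 1.30 above ASC-Ns (SE 0.98, unadjusted p = 0.217, adjusted p = 1). The first difference was 0.27 without ASC-L array 2, 0.32 without ASC-N array 3 and 2.06 without ASC-L array 1 (unadjusted p = 0.763, 0.737 and 0.0604), and 0.13 with array weights (unadjusted p = 0.876). Its 2 highest arrays, ASC-L array 2 and ASC-I array 2, were those with the highest luminal epithelial markers, and its lowest, ASC-N array 3, had the lowest macrophage markers. Their part in the values of Pla2g7 was not tested.

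**Figure D3:**
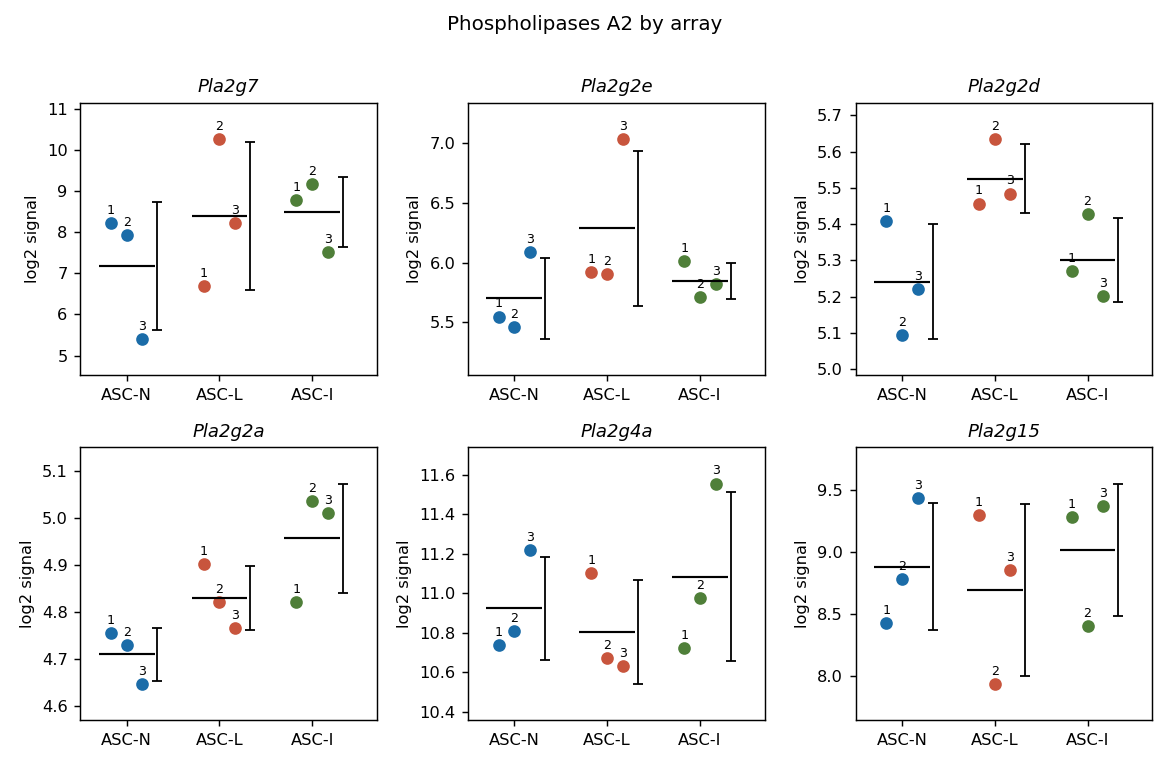
Log2 signal of Pla2g7, Pla2g2e, Pla2g2d, Pla2g2a, Pla2g4a and Pla2g15 on each array (dots, with the replicate number), with the stage mean (line) and SD (bar, n = 3). The axes differ between panels and do not start at 0. Pla2g7 runs from 5.40 to 10.27, and the ASC-L arrays of Pla2g2d lie above all others.

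In the leukotriene branch 2 genes were called, Alox5 and the receptor Cysltr1, each in a single comparison and each lower in ASC-Ls. Alox5, which makes the first intermediate of all leukotrienes, had log2 signals of 6.54, 6.59 and 5.54 in ASC-Ns, 6.03, 5.38 and 5.72 in ASC-Ls and 7.30, 6.10 and 6.33 in ASC-Is. The ASC-L arrays lay below all ASC-I arrays, by only 0.07 at the nearest pair, and overlapped ASC-N array 3. Alox5 was 1.83-fold lower in ASC-L than in ASC-I (difference -0.87, SE 0.37, unadjusted p = 0.0442, adjusted p = 1). Against ASC-Ns the difference was -0.51 (SE 0.37, unadjusted p = 0.201, adjusted p = 0.998), and ASC-Is against ASC-Ns differed by 0.36 (SE 0.37, unadjusted p = 0.362, adjusted p = 1). The call in ASC-Ls against ASC-Is was lost without any of 5 arrays, ASC-N array 1 (unadjusted p = 0.052), ASC-L array 2 (unadjusted p = 0.128) or 3 (unadjusted p = 0.0822), and ASC-I array 1 (unadjusted p = 0.17) or 3 (unadjusted p = 0.0502). In each of these limma fits the difference stayed between -0.99 and -0.51.

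Alox5ap encodes FLAP, the membrane protein that hands arachidonic acid to Alox5. It had log2 signals of 6.99, 6.94 and 5.47 in ASC-Ns, 6.04, 5.28 and 5.52 in ASC-Ls and 7.64, 5.66 and 6.38 in ASC-Is. The ASC-L arrays were at the low end together with ASC-N array 3 and ASC-I array 2. The mean in ASC-Ls was 0.85 below ASC-Ns (SE 0.54, unadjusted p = 0.15, adjusted p = 0.998) and 0.95 below ASC-Is (SE 0.54, unadjusted p = 0.114, adjusted p = 1), so that neither passed. Without ASC-N array 3 the limma difference from ASC-Ns was -1.35 (unadjusted p = 0.0288), and without ASC-I array 2 that from ASC-Is was -1.40 (unadjusted p = 0.029). Without ASC-N array 1 the first was -0.59, and without ASC-I array 1 the second was -0.41 (unadjusted p = 0.421). Alox5 itself was also called against ASC-Ns without ASC-N array 3 (difference -0.85, unadjusted p = 0.039). In that fit 1.77% of all genes were called against ASC-Ns, beside 0.627% with all arrays. Without ASC-I array 2, 1.59% of all genes were called against ASC-Is, beside 0.482% with all arrays.

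Cysltr1, the main receptor for leukotriene D4, was at 6.65, 6.67 and 4.63 in ASC-Ns, 4.73, 4.98 and 4.11 in ASC-Ls and 6.19, 5.26 and 5.25 in ASC-Is. The ASC-L arrays lay below all ASC-I arrays, with a gap of 0.27, but ASC-N array 3 lay among them. The receptor was 2.6-fold lower in ASC-L than in ASC-N (difference -1.38, SE 0.54, unadjusted p = 0.0303, adjusted p = 0.998). Against ASC-Is it was 0.96 lower on the log2 scale (SE 0.54, unadjusted p = 0.107, adjusted p = 1). The call against ASC-Ns was lost without ASC-N array 1 (unadjusted p = 0.11) or 2 (unadjusted p = 0.111) or ASC-L array 1 (unadjusted p = 0.0523) or 3 (unadjusted p = 0.0987), with differences between -1.44 and -1.04. Without ASC-N array 3 the receptor passed in limma against ASC-Is too (unadjusted p = 0.0136), and in ASC-Is against ASC-Ns (difference -1.10, unadjusted p = 0.0123), where the difference was -0.42 with all arrays (unadjusted p = 0.454) and -0.08 without ASC-N array 2. In the fit without ASC-N array 3, 0.697% of all genes were called in ASC-Ls against ASC-Is and 1.11% in ASC-Is against ASC-Ns. With all arrays these shares were 0.482 and 0.251%. Without ASC-I array 1 the difference of Cysltr1 from ASC-Is was -0.65 (unadjusted p = 0.306). The replicate numbers of ASC-Ls and ASC-Is marked arrays that deviated together, and with the number as a block in limma 3 of the 49 genes were called lower in ASC-L than in ASC-I. These were Alox5, Alox5ap (unadjusted p = 0.0434) and Cysltr1 (unadjusted p = 0.0254), beside 1.04% of all genes called in that fit. The block covered the ASC-Ns too and rested on correlations in these same data, with no pairing given.

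ASC-N arrays 1 and 2 and ASC-I array 1 were also the highest in 2 synthases of the prostanoid branch that are known from hematopoietic cells. Hpgds, the prostaglandin D2 synthase of mast cells, macrophages and some T cells, was at 6.81, 6.95 and 4.46 in ASC-Ns, 4.70, 5.09 and 4.23 in ASC-Ls and 7.31, 4.85 and 5.23 in ASC-Is. It was high on ASC-N arrays 1 and 2 and ASC-I array 1, and the other 6 arrays lay between 4.23 and 5.23. ASC-Ls were 1.40 below ASC-Ns (SE 0.77, 95% interval -3.14 to 0.34, unadjusted p = 0.101, adjusted p = 0.998) and 1.13 below ASC-Is (SE 0.77, unadjusted p = 0.176, adjusted p = 1). Tbxas1, the thromboxane synthase of platelets and macrophages, was at 6.18, 6.59 and 5.07 in ASC-Ns, 5.18, 6.0 and 5.33 in ASC-Ls and 6.32, 6.03 and 5.89 in ASC-Is. ASC-L array 2 reached the level of the ASC-Is, and the difference of ASC-Ls from ASC-Is was -0.58 (SE 0.37, unadjusted p = 0.153, adjusted p = 1). Against ASC-Ns the difference of Tbxas1 was -0.44 (SE 0.37, unadjusted p = 0.261, adjusted p = 0.998). These values rested on single arrays. Without ASC-N array 3 both genes passed in limma, Hpgds with a difference of -2.21 (unadjusted p = 0.0094) and Tbxas1 with -0.88 (unadjusted p = 0.0103). In that fit 1.77% of all genes were called, beside 0.627% with all arrays. Without ASC-N array 2 the differences of Hpgds and Tbxas1 were -0.96 (unadjusted p = 0.287) and -0.12 (unadjusted p = 0.74).

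Macrophage markers were high or low on many of the same arrays as these 5 genes, but not on all. On ASC-I array 2, where the markers were higher than on any ASC-L array, Hpgds (4.85) was below ASC-L array 2 (5.09). Alox5ap on ASC-I array 2 (5.66) was below ASC-L array 1 (6.04). The part of the markers in the result was not tested. The mean log2 signal of the 27 markers measured ran from 5.93 to 7.79 in ASC-Ns, 6.27 to 6.53 in ASC-Ls and 7.09 to 8.27 in ASC-Is, and on single arrays it was 7.79, 7.71 and 5.93 in ASC-Ns and 8.27, 7.09 and 7.27 in ASC-Is. ASC-N array 3 and the ASC-L arrays were lowest, as for Alox5 and Cysltr1. The mean in ASC-Ls was lower than in ASC-Ns for 24 of the 27, 2 of them called (Csf1r and Cx3cr1), beside 0.457% of all genes called lower. It was lower than in ASC-Is for 25, 12 of them called, among them Adgre1, Spi1 and Ptprc, beside 0.406%. The paper measured the macrophage marker encoded by Adgre1 by RT-PCR in ASC cultures. It reported no significant difference of ASC-Ls from other stages that could explain their failure to accumulate lipid. ASC-Is lay above ASC-Ns for 23 of the 27, with 0 called. The levels of single markers differed widely, from Cd163 and Ccr2, which lay between 3.83 and 4.69 on all arrays, to Cd68, between 7.59 and 10.42, and Lyz2, between 9.29 and 12.17. For the other cells known for leukotrienes the list means lay between 4.54 and 4.96 for neutrophils, 4.84 and 5.03 for mast cells and 4.54 and 4.84 for eosinophils. Single genes of these lists varied more. The neutrophil gene Mmp8 ran from 5.48 to 8.03 and was highest on ASC-L array 3, Ltf ran from 4.45 to 7.23 and was highest on ASC-L array 2, and Camp ran from 5.10 to 6.42, while Ly6g lay between 3.94 and 4.51. The mast cell marker Kit ran from 5.06 to 6.41, while Cpa3 and Ms4a2 lay between 3.52 and 4.17.

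**Figure D4:**
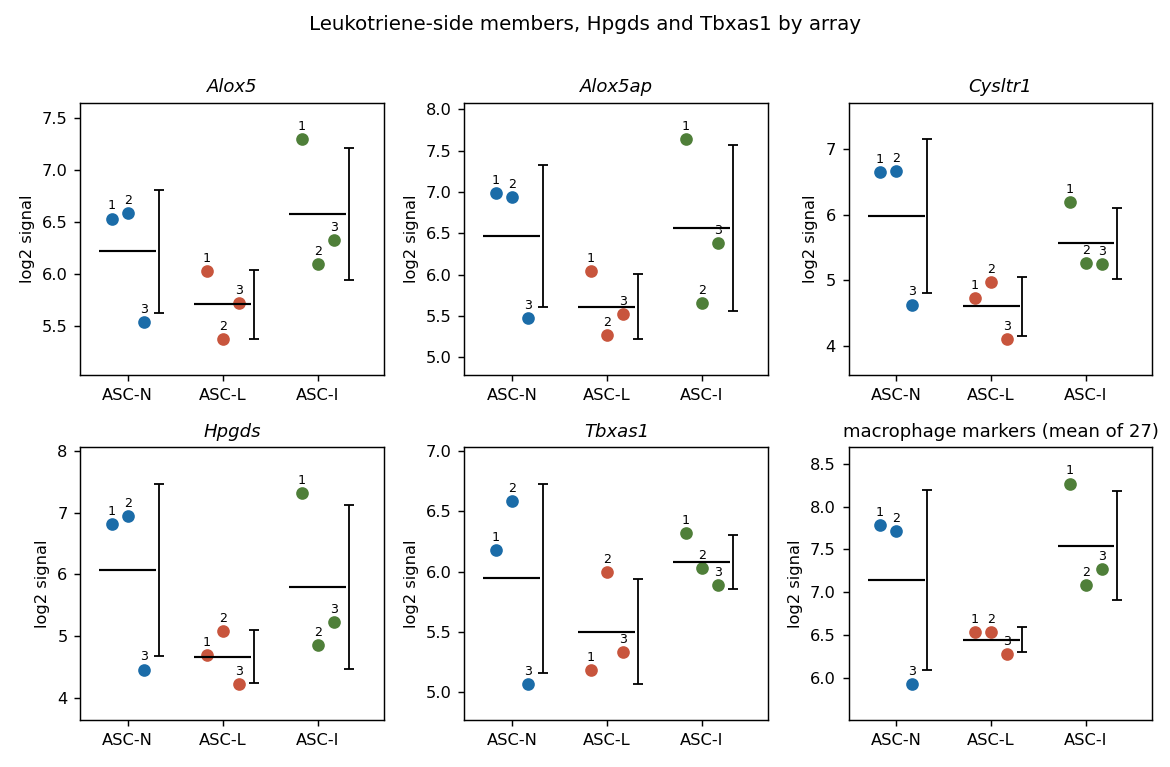
Log2 signal of Alox5, Alox5ap, Cysltr1, Hpgds and Tbxas1 and the mean of 27 macrophage markers on each array (dots, with the replicate number), with the stage mean (line) and SD (bar, n = 3). The axes differ between panels and do not start at 0. ASC-N array 3 lies apart from ASC-N arrays 1 and 2 in every panel, and ASC-I array 1 is the highest ASC-I array.

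The promoters of Alox5, Hpgds and Tbxas1, which were high on the same arrays, are shown with that of Hpgd, a called gene of the prostaglandin branch. RefSeq promoters of build GRCm38.p6 were found for 41 of the 49 genes, and the genes Pla2g3, Aloxe3, Alox5ap, Alox15, Ptger1, Cysltr1, Ptgis and Pla2g2a had no entry. The 250 bases before the start site were searched on both strands for GAGGAA, a core sequence of sites of the myeloid factor PU.1, whose reverse complement is TTCCTC, and matches are in capitals.
Alox5, chr6:116461179-116461428, minus strand: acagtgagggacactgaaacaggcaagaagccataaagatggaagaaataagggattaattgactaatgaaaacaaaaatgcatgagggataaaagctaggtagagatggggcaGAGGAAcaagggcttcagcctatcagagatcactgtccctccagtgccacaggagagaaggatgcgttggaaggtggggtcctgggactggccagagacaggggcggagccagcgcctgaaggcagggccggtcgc
Hpgds, chr6:65144731-65144980, minus strand: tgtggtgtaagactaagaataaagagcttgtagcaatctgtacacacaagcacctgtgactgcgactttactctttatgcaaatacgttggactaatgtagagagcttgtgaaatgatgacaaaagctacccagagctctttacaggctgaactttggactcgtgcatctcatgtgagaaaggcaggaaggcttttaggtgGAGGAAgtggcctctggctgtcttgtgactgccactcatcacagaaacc
Tbxas1, chr6:38918736-38918985, plus strand: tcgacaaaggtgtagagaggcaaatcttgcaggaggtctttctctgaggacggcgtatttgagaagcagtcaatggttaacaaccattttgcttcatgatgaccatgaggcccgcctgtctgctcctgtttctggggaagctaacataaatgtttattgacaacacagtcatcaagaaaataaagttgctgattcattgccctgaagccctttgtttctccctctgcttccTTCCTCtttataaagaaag
Hpgd, chr8:56294302-56294551, plus strand: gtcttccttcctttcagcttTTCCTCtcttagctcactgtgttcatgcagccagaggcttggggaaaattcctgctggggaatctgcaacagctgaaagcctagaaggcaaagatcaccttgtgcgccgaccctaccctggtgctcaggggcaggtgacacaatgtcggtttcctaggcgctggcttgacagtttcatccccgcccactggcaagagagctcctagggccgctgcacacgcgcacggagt
In each of the 4 windows 1 match was present, beginning 136 bases before the start site in Alox5, 49 in Hpgds, 19 in Tbxas1 and 230 in Hpgd. The windows of Hpgds and Tbxas1 lie within the annotated spans of these genes, 65117293 to 65144981 and 38864159 to 39084590. Their start sites are therefore not the outermost ones. Of the 45 promoters listed for the 49 genes, some of which have more than 1, 18 held a match (40%), beside 23.3% of the 32851 promoters of the same length in the table. The promoters with a match include those of Ptgs2, Ptges, Ptgfr and Ptgir. The motif was chosen after the array values had been seen, and a match describes letters and not a bound site.

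The other lipoxygenases and the leukotriene synthases did not pass the threshold. The lipoxygenases of skin, Alox12b, Aloxe3, Alox12e and Alox8, and Alox15, which acts in myeloid cells, differed between stages by at most 0.19 on the log2 scale. Alox12, the lipoxygenase of platelets, was at 5.51 on ASC-L array 2 and between 4.32 and 4.82 on the other arrays. These lipoxygenase genes lie in 2 runs on chromosome 11, Aloxe3, Alox12b and Alox8 in the first and Alox12, Alox12e and Alox15 in the second. Lta4h, which makes leukotriene B4, stayed between 7.49 and 8.02 on all arrays. Ltc4s, which makes leukotriene C4, was 0.33 lower in ASC-Ls than in either other stage (SE 0.25, unadjusted p = 0.215 and 0.218, adjusted p = 0.998 and 1). The receptors Ltb4r1 and Cysltr2 differed by at most 0.20, and Ltb4r2 was not analysed here.

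Ptgs2, the inducible cyclooxygenase, had high signals at every stage. Its log2 signal was 11.94, 11.92 and 12.62 in ASC-Ns, 12.63, 13.00 and 12.14 in ASC-Ls and 12.29, 12.99 and 12.98 in ASC-Is. ASC-N arrays 1 and 2 were the lowest, and ASC-N array 3 lay among the arrays of the other stages. The mean was 0.43 higher in ASC-L than in ASC-N (SE 0.29, unadjusted p = 0.172, adjusted p = 0.998), and 0.59 higher in ASC-I than in ASC-N (SE 0.29, unadjusted p = 0.0716, adjusted p = 1). ASC-Ls and ASC-Is differed by -0.16 with a 95% interval from -0.82 to 0.49. The difference of ASC-Is from ASC-Ns passed the threshold without ASC-N array 3 (difference 0.82, unadjusted p = 0.0221) or without ASC-I array 1 (difference 0.83, unadjusted p = 0.0229), and was 0.47 without ASC-N array 2 (unadjusted p = 0.194). Of all genes 1.11% were called without ASC-N array 3 and 0.201% without ASC-I array 1, beside 0.251% with all arrays. Ptgs1, the constitutive cyclooxygenase, was not analysed here.

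Among the prostaglandin E2 synthases, Ptges, the inducible microsomal enzyme, varied between the preparations of every stage. It was at 8.06, 7.71 and 9.47 in ASC-Ns, 8.61, 7.83 and 8.95 in ASC-Ls and 7.74, 8.01 and 9.24 in ASC-Is. Array 3 was the highest in each stage, and the stages overlapped over nearly their whole range. The stage means lay within 0.13 of each other, with a 95% interval from -1.16 to 1.26 for ASC-Ls against ASC-Ns. Ptges2, the membrane-associated enzyme, differed by at most 0.15, and Ptges3, a cochaperone of Hsp90 with synthase activity, by at most 0.11. Ptges3 was the only one of the 49 with 3 probe sets, which may also read copies of the gene elsewhere in the genome, and its values are uncertain for that reason. Ptgis, the prostacyclin synthase, and Ptgds, the lipocalin-type prostaglandin D2 synthase, differed by at most 0.19, although the ASC-L arrays of Ptgds, between 5.62 and 5.69, all lay above the ASC-N arrays, at 5.40, 5.47 and 5.50.

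Hpgd, which oxidizes prostaglandin E2 to an inactive product, was called lower in ASC-L than in ASC-N, close to the threshold. Its log2 signal was 6.55, 5.63 and 6.85 in ASC-Ns, 6.23, 4.92 and 5.23 in ASC-Ls and 5.30, 5.44 and 5.73 in ASC-Is. ASC-N arrays 1 and 3 were the highest, ASC-L array 1 lay above ASC-N array 2, and the ASC-I arrays lay within 0.43 of each other. The gene was 1.85-fold lower in ASC-L than in ASC-N (difference -0.88, SE 0.38, unadjusted p = 0.0462, adjusted p = 0.998). A like difference of -0.85 in ASC-Is against ASC-Ns missed the threshold (SE 0.38, unadjusted p = 0.053, adjusted p = 1), and ASC-Ls and ASC-Is differed by -0.03 with a 95% interval from -0.90 to 0.83. The call against ASC-Ns was lost without ASC-N array 1 (unadjusted p = 0.12) or 3 (unadjusted p = 0.159), ASC-L array 2 (unadjusted p = 0.156) or 3 (unadjusted p = 0.122), or any ASC-I array (unadjusted p = 0.0568 to 0.0604). The difference was then between -0.88 and -0.62 in limma. With all arrays it was also lost in fits of only the 2 stages compared (unadjusted p = 0.0762), with array weights (unadjusted p = 0.055), with an intensity trend and robust prior (unadjusted p = 0.0517) and without the genes of lowest signal (unadjusted p = 0.05). Luminal epithelial markers were highest on ASC-L array 2, the lowest array of Hpgd, and without that array the difference was -0.62. The difference of ASC-Is from ASC-Ns passed in limma without ASC-N array 2 (difference -1.21, unadjusted p = 0.00952), ASC-L array 1 (unadjusted p = 0.0216) or ASC-L array 2 (unadjusted p = 0.0415), and was -0.60 without ASC-N array 3 (unadjusted p = 0.179).

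None of the 8 prostanoid receptors passed the threshold. Of these, 6 had a lower mean in ASC-L than in ASC-N, with a median difference of -0.21, and 5 a lower mean than in ASC-Is, with a median of -0.14. Ptgfr, the receptor for prostaglandin F2 alpha, was at 7.24, 6.48 and 7.03 in ASC-Ns, 6.39, 5.08 and 6.37 in ASC-Ls and 6.46, 5.64 and 7.29 in ASC-Is. All ASC-L arrays lay below all ASC-N arrays, while those of ASC-Is spanned both. The difference was -0.97 (SE 0.47, 95% interval -2.03 to 0.09, unadjusted p = 0.0675, adjusted p = 0.998), or 1.96-fold. It passed in limma without ASC-I array 2 (unadjusted p = 0.0402) or 3 (unadjusted p = 0.0415), arrays outside the comparison that enter the estimate of the spread. Without ASC-L array 2 the difference was -0.53 (unadjusted p = 0.244). Ptgir, the prostacyclin receptor, was at 6.98, 6.70 and 7.72 in ASC-Ns, 6.74, 5.88 and 7.63 in ASC-Ls and 6.89, 6.43 and 7.35 in ASC-Is. Array 2 was the lowest and array 3 the highest in each stage, and ASC-Ls differed from ASC-Ns by -0.39 (SE 0.44, unadjusted p = 0.405, adjusted p = 0.998). The sign of this difference rested on ASC-L array 2, since it was 0.05 without that array (unadjusted p = 0.905) and -0.83 without ASC-L array 3 (unadjusted p = 0.0672). The thromboxane receptor Tbxa2r was lowest on ASC-L array 2 at 5.53 and lay between 6.16 and 6.86 on the other arrays. Ptgfr, Ptgir and Tbxa2r were each lowest on ASC-L array 2 and next lowest on ASC-I array 2, the arrays with luminal list means of 8.47 and 7.23, and the part of the epithelial signal in these values was not tested.

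**Figure D5:**
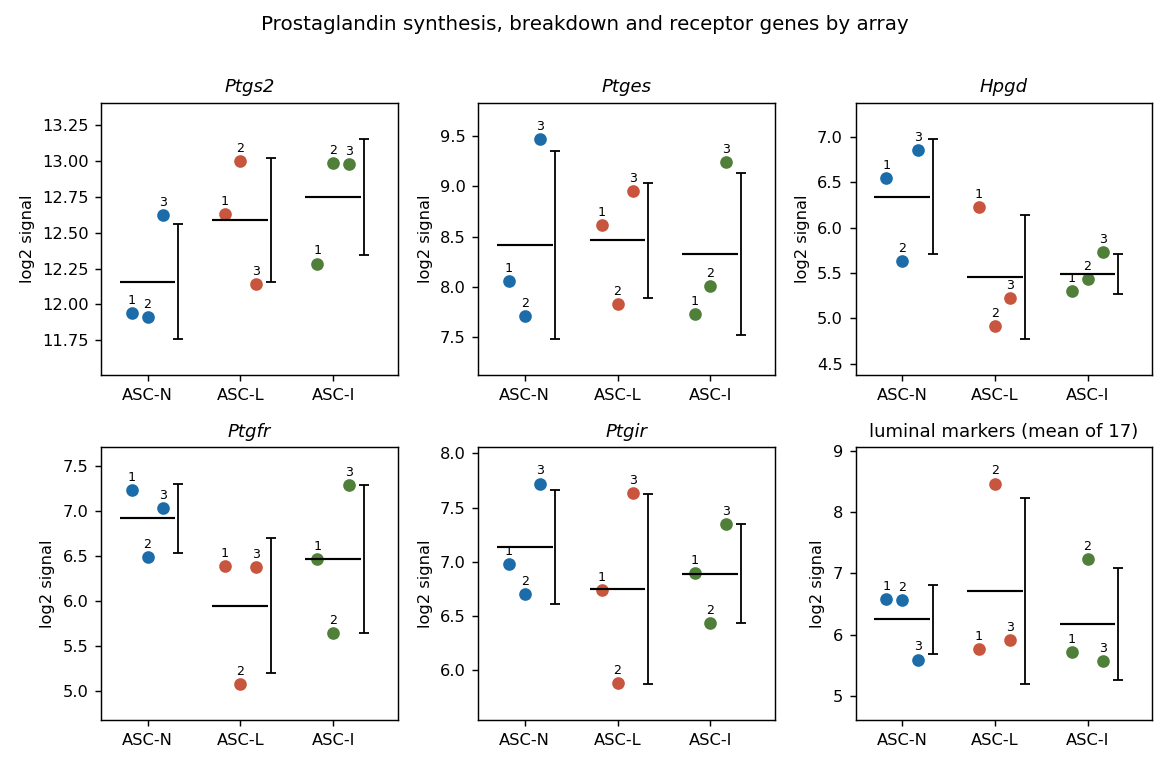
Log2 signal of Ptgs2, Ptges, Hpgd, Ptgfr and Ptgir and the mean of 17 luminal epithelial markers on each array (dots, with the replicate number), with the stage mean (line) and SD (bar, n = 3). The axes differ between panels and do not start at 0. Array 3 is the highest of each stage for Ptges and Ptgir, and ASC-L array 2 is the lowest array of Hpgd, Ptgfr and Ptgir and the highest of the luminal markers.

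The 4 prostaglandin E2 receptors differed little between the stages. Ptger4, a receptor that raises cyclic AMP, was at 7.35, 7.54 and 7.37 in ASC-Ns, 7.41, 6.96 and 6.92 in ASC-Ls and 7.29, 7.06 and 7.46 in ASC-Is. ASC-L arrays 2 and 3 were the lowest, but ASC-L array 1 lay among the ASC-Ns, and the difference of -0.32 did not pass (SE 0.16, unadjusted p = 0.082, adjusted p = 0.998). Ptger2, which also raises cyclic AMP, was at 4.71, 4.34 and 4.98 in ASC-Ns, 4.63, 4.70 and 5.06 in ASC-Ls and 4.62, 4.63 and 4.57 in ASC-Is. Ptger1, which acts through calcium, was at 6.21, 6.14 and 6.31 in ASC-Ns, 6.18, 5.99 and 6.19 in ASC-Ls and 6.32, 6.09 and 6.35 in ASC-Is. Both overlapped between all stages. Ptger3, which lowers cyclic AMP, was at 4.94, 4.49 and 4.58 in ASC-Ns, 4.80, 4.55 and 4.65 in ASC-Ls and 4.60, 4.50 and 4.42 in ASC-Is, and overlapped likewise. Differences between stage means of Ptger1, Ptger2 and Ptger3 were at most 0.19. Ptgdr, the prostaglandin D2 receptor, differed by at most 0.11.

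Other genes of eicosanoid metabolism were counted from a separate list of transporters, reductases, peptidases, fatty acid desaturases and regulators. Of the 29 measured, 1 was called in ASC-Ls against ASC-Ns and in ASC-Is against ASC-Ns, and 0 in ASC-Ls against ASC-Is. Beside these, 0.627, 0.251 and 0.482% of all genes were called. The median differences were -0.04, 0.06 and -0.07 in this order. The gene called was Ggt5, a gamma-glutamyl transferase that converts leukotriene C4 to leukotriene D4, the ligand of Cysltr1. Its log2 signal was 7.65, 7.56 and 6.03 in ASC-Ns, 6.23, 5.19 and 5.57 in ASC-Ls and 5.89, 5.37 and 6.43 in ASC-Is. ASC-N arrays 1 and 2 stood above all others, and ASC-N array 3 lay within the range of the other stages. Ggt5 was 2.66-fold lower in ASC-L than in ASC-N (difference -1.41, SE 0.46, unadjusted p = 0.0141, adjusted p = 0.998) and 2.27-fold lower in ASC-I than in ASC-N (difference -1.18, SE 0.46, unadjusted p = 0.0319, adjusted p = 1). The first call was lost without ASC-N array 1 (unadjusted p = 0.0566) or 2 (unadjusted p = 0.0542) in limma. The second was lost without ASC-N array 1 (unadjusted p = 0.115) or 2 (unadjusted p = 0.108), or ASC-I array 1 (unadjusted p = 0.0678) or 2 (unadjusted p = 0.108).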

How the data were processed

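Adipose stromal cells of 3 stages were measured on 9 arrays. The deposited values are log2 signals per probe set that the authors normalized between arrays before deposit, by robust multi-array average as the paper describes it, while GCRMA and limma are named in the submitters' processing notes, with versions not given in the sources used here. Of the 28348 probe sets, 21762 had 1 gene symbol in the annotation of the platform, 1621 had several and 4965 had none, and only the first were used. Entrez identifiers of 21671 were found in the RefSeq table, which changed 0 symbols. Log2 values were averaged per gene. Normalization of this kind can compress low signals, and levels were not ranked between genes.

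Linear models with a mean per stage were fitted to all 9 arrays and 19930 genes with limma 3.58.1 in R 4.3.3, with empirical Bayes moderation (6 residual and 2.91 prior degrees of freedom), and p-values are two-sided. A gene was called at an unadjusted p under 0.05 and 1.5-fold, and p-values were adjusted over all genes by Benjamini-Hochberg. The fit was tested on simulated data. The number of arrays limits the precision.

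The members and lists were chosen with earlier results of these data known. Given by array were members called, with an unadjusted p under 0.05 or with a range above 1.5, the cyclooxygenases and the prostaglandin E2 receptors. Pla2g15, Ptgds, Alox12 and Tbxa2r, and the arrays plotted for Pla2g4a, were added after their values were seen, as were the alternatives for Ggt5. Pla2g4b shares its probe set with other genes, and with Pla2g16, Ltb4r2 and Ptgs1 it was not analysed here.

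Replicate numbers recur in each stage, with no pairing given. Across genes, the departures of same-numbered arrays from their stage means correlated at r = 0.47, 0.73 and 0.46 for lactation and involution, at -0.08, 0.40 and 0.45 for lactation and nulliparous, and at 0.07, 0.43 and 0.50 for involution and nulliparous arrays. Only the first stages exceeded 0.1 in every pair. The block is therefore given beside results for ASC-Ls against ASC-Is. Slide or scan dates were not used here.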

Additional observations from a re-analysis of the deposited data

How the results depend on the processing

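The counts of called genes among the 49 were small under all 19 alternatives, and 0 genes passed an adjusted p of 0.05 in any of the 18 that fitted gene means. For ASC-Ls against ASC-Ns, 2 in the reported fit, the count was 1 with an intensity trend and robust prior, 5 with array weights and 1 without the 25% of genes of lowest mean signal, where 38 of the 49 were tested. It ranged from 0 to 6 when single arrays were left out, with 6 called without ASC-N replicate 3 (Alox5, Alox5ap, Cysltr1, Hpgds, Pla2g2e and Tbxas1). Of all genes 0.627% were called in the reported fit, 0.577% with the trend and robust prior and 0.682% without the lowest signals. The share was 1.56% with array weights and 1.77% without ASC-N replicate 3, so in these fits calls rose over all genes too. None of the 49 was called without ASC-N replicate 1 or without ASC-L replicate 3, beside 0.401 and 1.15% of all genes. For ASC-Ls against ASC-Is, 1 in the reported fit, it was 2 with only the stages compared, 2 with array weights, 0 without the arrays of highest epithelial signal, replicate 2 of ASC-L and of ASC-I, and 0 to 2 without single arrays. For ASC-Is against ASC-Ns, 0 in the reported fit, it was 1 with only the stages compared, 2 with array weights, 1 with quantile normalization, 1 with cyclic loess, and 0 to 2 without single arrays. Of all genes 0.482% were called in ASC-Ls against ASC-Is in the reported fit, 0.602% with only the stages compared and 0.712% with array weights. The share was 0.973% without both replicate 2 arrays, and from 0.181 to 1.66% without single arrays. In ASC-Is against ASC-Ns the shares were 0.251% in the reported fit, 0.356% with only the stages compared and 0.938% with array weights. They were 0.231% with quantile normalization, 0.211% with cyclic loess, and from 0.161 to 1.11% without single arrays, with 1.11% without ASC-N replicate 3. The cause of these shifts was not tested. With the replicate number as a block the counts were 5 (Cysltr1, Hpgd, Hpgds, Pla2g2e and Ptgfr), 3 and 1 (Hpgd). Of all genes 1.48, 1.04 and 0.452% were called in that fit. Only the pairs of ASC-Ls and ASC-Is all deviated together. Of the values of single genes named by the rule, 853 kept their direction and side of the threshold over the alternatives, 36 newly passed it, 22 no longer did, 52 of uncalled genes changed sign and 0 of called genes reversed. Low signals and 3 arrays per stage limit what could be detected.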
